A study of Homo sapiens with 9 samples.

Results

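The comparison described here set Ramos cells given HDL-like nanoparticles (HDL NPs) against Ramos cells given human HDL, across every gene the arrays could measure. It used 6 of the 9 arrays of the series, 3 for each particle, run as biological replicates. Ramos is an established Burkitt's lymphoma line, a malignancy of germinal center B cells, and was used at passage 10 to 15. The first received HDL NPs at 40 nM for 48 h, and the second received human HDL at the same 40 nM for the same time. The remaining 3 arrays held cells given PBS. These arrays were normalised and fitted with the others, helped estimate the spread and served as a reference for a few values. The HDL NP is a synthetic particle with a gold core, apolipoprotein A-I and phospholipids, poor in cholesterol, while human HDL is the natural, cholesterol-rich particle, so cells of both groups met an HDL-sized ligand of the same receptor and differed in what it carried. All findings therefore concern 1 cell line at 1 dose and 1 time.

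A gene was included when a probe for it was above background, meaning a detection p under 0.05, on at least 3 of the 6 arrays, and the brightest such probe stood for the gene. Of 20046 genes with a named probe, 9751 passed, and 8245 of these were above background on all 6 arrays. The 1398 probes that were just inside the limit, above background on 3 arrays, had a median level of 4.56 on the log2 scale, and the 2159 just outside it, on 2 arrays, had a median of 4.48. All levels below are log2 of background-corrected, quantile-normalised bead intensity, and a difference of 1 on this scale is a 2-fold change. Levels of different probes are not comparable with each other.

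Cells obtain cholesterol by taking up lipoproteins or by making it from acetyl-CoA. Scavenger receptor class B type 1 (SCARB1) binds HDL and lets cholesterol pass between particle and membrane in either direction. When cholesterol in the endoplasmic reticulum is low, the sensor SCAP releases from its INSIG anchors and carries SREBP transcription factors to the Golgi, where they are cut and freed to switch on the genes of cholesterol synthesis, fatty acid synthesis and lipoprotein uptake. The early, mevalonate part of the pathway also feeds the isoprenoids that the cell uses for coenzyme Q, protein prenylation and the maturation of the selenocysteine tRNA that selenoproteins such as GPX4 need.

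The arrays read as B cells. Of the B cell markers analysed, MS4A1, CD79A, CD79B and CD22 were above background on all 6 arrays, and PAX5, a B cell transcription factor, was above background on none. T cell markers were close to background, with 0 of 12 above it on all 6 arrays. Their summed intensity was 56.2 to 64.6 after HDL NPs and 62.5 to 68.7 after human HDL. The 5 B cell markers summed to 8470 to 8530 after HDL NPs and 8300 to 8750 after human HDL. CD79A and CD79B were the brightest of these, at 11.2 and 12.6 after HDL NPs, while MS4A1 and CD22 were at 5.2 and 5.66. Sums over different probes are not comparable between marker sets. Of 11 myeloid markers, which summed to 121 to 157 after HDL NPs and 128 to 138 after human HDL, 1 was above background throughout (CD68, which many cell types express), and of 8 hepatocyte and plasma protein markers, which summed to 41 to 66.2 after HDL NPs and 31.7 to 47.4 after human HDL, none was. HDL NP replicate 1 stood apart from the other arrays. On it, 591 genes lay 1 log2 unit or more from the human HDL mean, 130 above and 461 below, while the same was true of 6 and 9 genes on HDL NP replicates 2 and 3. Its share of probes above background was 38.1%, against 35.7% and 36.5% on the other HDL NP arrays and 34.0% to 36.2% on the human HDL arrays. Values that this array moved by more than 1.5 times are given below by array or with and without it, and the median difference over all genes tested was -0.01 without it.

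After HDL NPs, 59 genes were higher and 4 were lower than after human HDL (limma, Benjamini-Hochberg adjusted p under 0.05), which is 0.605% and 0.041% of the genes tested. The rises were 1.48-fold to 2.24-fold and were led by HMGCS1, GOLGA8B, LSS, MSMO1 and DHCR7. All of these but GOLGA8B are cholesterol synthesis genes. The falls were 1.71-fold to 4.37-fold by fitted value and comprised ID1, GPX1, PTPN6 and LHPP. In each of these 63 genes every HDL NP array lay beyond every human HDL array. That separation was common among all genes, being met by 1262 upwards (12.9%) and 1000 downwards (10.3%), and the exact permutation test of 3 arrays against 3 can give no p below 0.1. Most of the transcriptome moved little, with 93.4% of genes within 0.5 log2 units of no difference. The rise was at least 2-fold for 7 genes (0.0718%) and the fall for 5 (0.0513%). At an unadjusted p under 0.05, 970 genes were higher (9.95%) and 680 lower (6.97%). In the same fit, human HDL against PBS gave 0 genes at the adjusted threshold.

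**Figure D1:**
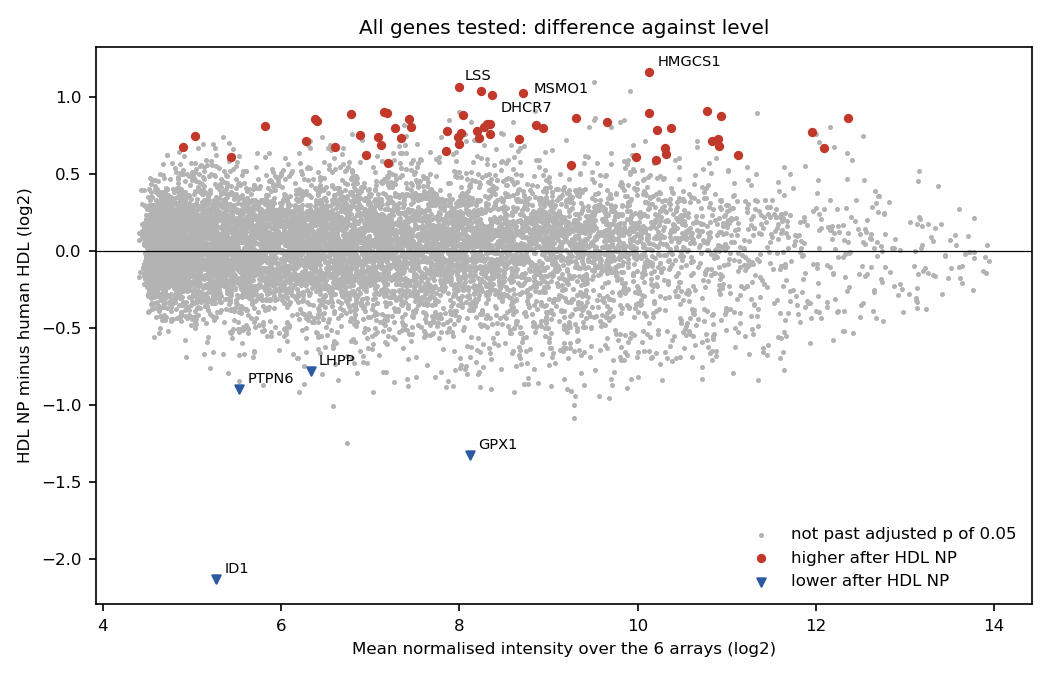
Difference between HDL NP and human HDL (log2, vertical axis) against the mean level over the 6 arrays (log2, horizontal axis) for the 9751 genes tested, 1 point per gene. Red circles are the 59 genes higher after HDL NPs and blue triangles the 4 genes lower, and most other genes lie within 0.5 log2 units of 0.

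Most of the 63 calls did not depend on HDL NP replicate 1. Without that array 76 genes were higher and 11 lower, and 56 of the 59 rises and all 4 falls were among them. The number of calls did depend on the other arrays. It fell to 3 higher and 2 lower without HDL NP replicate 3, to 2 or 3 higher and 2 lower without any 1 of the human HDL arrays, and to 8 to 18 higher and 3 lower without any 1 of the PBS arrays, and it stood at 170 higher and 64 lower without HDL NP replicate 2. ID1, GPX1, LSS and HMGCS1 passed in all 9 of these fits, DHCR7 in 7 and MSMO1 in 6, and USP49, ALPP, AOC4P, CREB1 and PTPN6 in 5. Of the rest, 10 genes passed in 3 of them, 38 in 2 and 4 in 1. All 63 genes kept their direction in each of the 9. With each array scaled to a common median in place of quantile normalisation, 1 gene was higher and 2 lower, namely LSS, ID1 and GPX1, and with only the 6 arrays normalised and fitted, 3 were higher and 2 lower, namely HMGCS1, LSS, DHCR7, ID1 and GPX1. Where another kept probe existed for a called gene, it often moved less. For 22 of the 59 risen genes there were 30 such probes, of which 23 had the same sign and 7 at least 0.5 of the size.

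Cholesterol synthesis held 6 of the 59 rises, more than any other list examined. Of the 8 measured genes of the mevalonate part, 2 rose at the adjusted threshold, 5 had every HDL NP array above every human HDL array, 1 had every array below, and the median difference was 0.54. Of the 11 measured genes of the sterol part, 4 rose, 7 were separated upwards, none was separated downwards, all 11 had a positive difference and the median was 0.56. Over all genes tested, 0.605% rose, 12.9% were separated upwards and 10.3% downwards. A positive difference was found in 5403 of the 9751 genes, and the median difference of all genes was 0.03. The medians of the 2 lists were alike on the 3 HDL NP arrays, at 0.50, 0.63 and 0.53 for the mevalonate part and 0.77, 0.53 and 0.58 for the sterol part.

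The promoters of the risen sterol genes are shown because SREBP binds together with a partner, NF-Y, whose site is the CCAAT box, and the members that moved together can be read side by side. Each line gives the 250 bases before the transcription start from RefSeq, 5′ to 3′ on the gene's own strand in GRCh38.p14, and capitals mark CCAAT on either strand, so that ATTGG is the same box read on the other strand. HMGCS1 lies on the minus strand at chr5:43313413-43313662, LSS on the minus strand at chr21:46228775-46229024, MSMO1 on the plus strand at chr4:165327419-165327668, DHCR7 on the minus strand at chr11:71448394-71448643 and INSIG1 on the plus strand at chr7:155297628-155297877.
HMGCS1: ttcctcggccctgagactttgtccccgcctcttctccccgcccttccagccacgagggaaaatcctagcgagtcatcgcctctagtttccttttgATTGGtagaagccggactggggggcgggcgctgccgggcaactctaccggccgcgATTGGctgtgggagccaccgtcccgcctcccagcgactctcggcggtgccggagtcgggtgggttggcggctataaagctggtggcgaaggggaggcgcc
LSS: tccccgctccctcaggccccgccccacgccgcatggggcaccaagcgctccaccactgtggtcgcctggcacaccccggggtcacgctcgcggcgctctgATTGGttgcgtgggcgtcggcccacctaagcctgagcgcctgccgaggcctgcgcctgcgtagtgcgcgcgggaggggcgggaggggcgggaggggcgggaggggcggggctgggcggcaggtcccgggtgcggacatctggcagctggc
MSMO1: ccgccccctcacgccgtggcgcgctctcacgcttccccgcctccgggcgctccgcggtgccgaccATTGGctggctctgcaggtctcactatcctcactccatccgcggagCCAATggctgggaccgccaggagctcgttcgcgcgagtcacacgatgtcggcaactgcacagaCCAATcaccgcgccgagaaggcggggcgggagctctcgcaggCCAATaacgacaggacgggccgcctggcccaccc
DHCR7: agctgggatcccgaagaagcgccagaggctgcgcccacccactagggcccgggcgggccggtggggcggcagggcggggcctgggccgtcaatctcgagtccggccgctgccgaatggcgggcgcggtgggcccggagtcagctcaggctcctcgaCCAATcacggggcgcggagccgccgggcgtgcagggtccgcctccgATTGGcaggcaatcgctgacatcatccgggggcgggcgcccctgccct
INSIG1: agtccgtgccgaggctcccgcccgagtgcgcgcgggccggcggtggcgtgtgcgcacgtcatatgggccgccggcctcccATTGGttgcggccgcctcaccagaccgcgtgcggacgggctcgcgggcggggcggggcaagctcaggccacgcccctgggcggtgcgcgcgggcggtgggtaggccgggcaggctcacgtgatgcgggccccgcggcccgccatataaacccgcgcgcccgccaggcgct
HMGCS1 has 2 CCAAT boxes, both reversed, LSS has 1 reversed, MSMO1 has 4, of which 3 are forward, DHCR7 has 1 in each direction, and INSIG1 has 1 reversed. The box nearest to a start is 29 bases before it, in MSMO1, and the farthest 180 bases before it, in the same gene. Of all genes tested with a window of 250 bases before to 50 after the start, 44.9% had at least 1 CCAAT on either strand in at least 1 window (7925 genes). Among the cholesterol synthesis genes 14 of the 17 with a window had one, and CYP51A1, LBR and PMVK had none. The sterol regulatory element spelled TCACNCCAC was found on either strand in 1.46% of all genes with a window and in 0 of these 17 genes. A match of letters is a description of the window and not a measured binding site. Some genes have several windows, and the first one listed is printed.

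HMGCS1 makes HMG-CoA from acetyl-CoA units early in the pathway. Its level was 10.99, 10.58 and 10.57 after HDL NPs, against 9.55, 9.57 and 9.52 after human HDL. The groups were well separated, and the human HDL arrays differed by less than 0.1 log2 units. HMGCS1 was 2.24-fold higher (log2 difference 1.16 ± 0.13, SE, adjusted p = 0.0041). ACAT2, the cytosolic thiolase that opens the pathway, was 10.98, 10.45 and 10.42 after HDL NPs and 9.86, 9.83 and 9.80 after human HDL, a rise of 0.79 ± 0.15 (SE, adjusted p = 0.043) whose highest value came from HDL NP replicate 1. Its rise was 0.60 without that array (adjusted p = 0.039). IDI1, which isomerises the first isoprenoid building block, was 8.86, 8.24 and 8.23 after HDL NPs and 7.35, 7.57 and 7.70 after human HDL. The groups did not overlap, but the difference of 0.90 ± 0.19 (SE) did not pass (adjusted p = 0.062). The kinase MVK (0.55, adjusted p = 0.07) and the decarboxylase MVD (0.54, adjusted p = 0.11) were also above human HDL on each HDL NP array without passing. PMVK, the kinase that acts between them, was the exception, at 8.47, 8.98 and 8.68 after HDL NPs and 9.23, 9.17 and 9.23 after human HDL, and its difference of -0.50 ± 0.14 (SE) did not pass (adjusted p = 0.12). FDPS, which makes farnesyl diphosphate, and GGPS1, on the branch to geranylgeranyl diphosphate, overlapped between the groups with differences of 0.22 and 0.12, or 0.48 and -0.05 without HDL NP replicate 1.

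In the sterol part, 4 of the steps after squalene rose, by 0.80 to 1.04 log2 units. LSS, the cyclase that makes lanosterol, was 8.78, 8.83 and 8.68 after HDL NPs, against 7.75, 7.71 and 7.71 after human HDL, a 2.06-fold rise (1.04 ± 0.11, SE, adjusted p = 0.0036). Its spread over the HDL NP arrays was 0.08 (SD). Its 2 other kept probes, both near background, differed by 0.09 and -0.02. MSMO1, which removes methyl groups from the sterol ring, was 9.38, 9.07 and 9.23 after HDL NPs and 8.08, 8.07 and 8.46 after human HDL (1.03 ± 0.14, SE, adjusted p = 0.011), while its 2 other probes differed by 0.36 and -0.11, and averaging the 3 gave 0.42 (adjusted p = 0.088). DHCR7, the last enzyme of one branch, was 8.99, 8.92 and 8.70 after HDL NPs and 7.94, 7.82 and 7.81 after human HDL (1.01 ± 0.13, SE, adjusted p = 0.0079), and its second probe gave 0.86. HSD17B7, a sterol ketoreductase, was 8.92, 8.58 and 8.53 after HDL NPs and 7.89, 7.92 and 7.80 after human HDL, a rise of 0.80 ± 0.13 (SE, adjusted p = 0.023). These 4 genes all kept the groups apart on every array.

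SQLE, the epoxidase that commits squalene to sterols, was 10.80, 9.91 and 9.96 after HDL NPs and 9.43, 9.32 and 9.41 after human HDL. The groups did not overlap, and HDL NP replicate 1 lay well above the others. The difference of 0.84 ± 0.20 (SE) did not pass with all arrays (adjusted p = 0.081) and was 0.55 without replicate 1, where it did (adjusted p = 0.039). NSDHL (0.50, adjusted p = 0.069) and SC5D (0.56, adjusted p = 0.081), which act late in the pathway, were separated upwards without passing. CYP51A1, TM7SF2, LBR and EBP overlapped between the groups, with differences of 0.35, 0.20, 0.11 and 0.12, or 0.54, 0.30, 0.04 and 0.22 without replicate 1. The 95% intervals of these 4 genes in the plot of the pathway include 0.

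**Figure D2:**
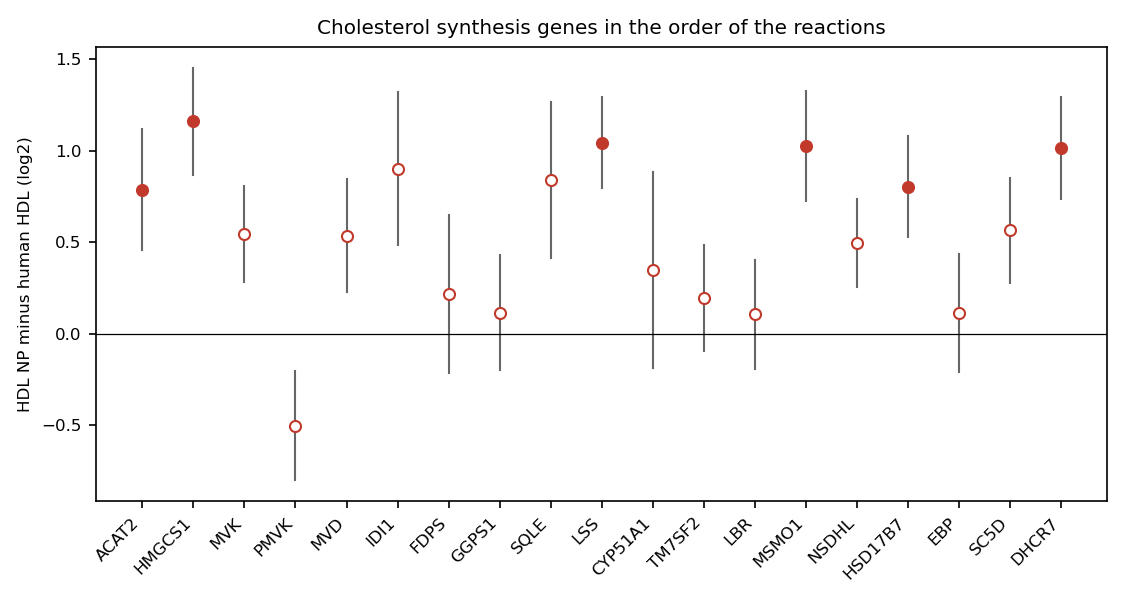
HDL NP minus human HDL (log2, vertical axis) for 19 measured cholesterol synthesis genes in the order of the reactions, with 95% confidence intervals from the limma fit as bars. Filled points passed the adjusted threshold (ACAT2, HMGCS1, LSS, MSMO1, HSD17B7 and DHCR7), open points did not, and PMVK is the only gene below 0.

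Among the 12 measured genes of sterol sensing and lipoprotein uptake, 1 rose (all genes: 0.605%), 6 were separated upwards (all genes: 12.9%) and 1 downwards (all genes: 10.3%), with a median difference of 0.23. INSIG1, which retains SCAP and is itself a target of SREBP, was 10.32, 9.90 and 10.01 after HDL NPs, against 9.24, 9.23 and 9.26 after human HDL (0.84 ± 0.13, SE, adjusted p = 0.019), and its second probe gave 0.68. NPC1, which moves cholesterol out of lysosomes, was 6.92, 6.56 and 6.51 after HDL NPs and 6.18, 5.85 and 5.95 after human HDL, a separated difference of 0.67 ± 0.14 (SE) just outside the threshold (adjusted p = 0.055). TMEM97, a sterol-regulated partner of NPC1, differed by 0.54 (adjusted p = 0.19) and by 0.30 without HDL NP replicate 1, and its other probe gave -0.27. The messages of the regulators themselves differed less. SREBF1 was above human HDL on each HDL NP array by a mean of 0.24, SCAP by 0.23 and INSIG2 by 0.22, none of them past the threshold (adjusted p = 0.37 to 0.41), and SREBF2 overlapped at 0.13. SCAP stood at 0.13 without HDL NP replicate 1. SCARB1, the receptor for both particles, was 8.45, 8.54 and 8.21 after HDL NPs and 8.34, 8.30 and 8.19 after human HDL, overlapping values with a difference of 0.12 ± 0.12 (SE, adjusted p = 0.62).

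Fatty acid genes, the other branch under SREBP, leaned the same way. Of 9 measured, 1 rose (all genes: 0.605%) and 7 were separated upwards (all genes: 12.9%), and the median difference was 0.35, at 0.49, 0.24 and 0.34 on the 3 HDL NP arrays. SCD, the desaturase that makes monounsaturated fatty acids, was 11.77, 11.13 and 11.23 after HDL NPs and 10.52, 10.45 and 10.52 after human HDL (0.88 ± 0.16, SE, adjusted p = 0.041). FASN, the fatty acid synthase, was 11.16, 10.89 and 10.98 after HDL NPs and 10.50, 10.31 and 10.19 after human HDL (0.68 ± 0.15, SE, adjusted p = 0.068). ACACA, the acetyl-CoA carboxylase (0.66), ACLY, which supplies acetyl-CoA (0.53), and the elongases ELOVL5 (0.35) and ELOVL6 (0.31) were separated without passing. The 7 measured genes of LXR signalling and cholesterol efflux had none past the threshold, 1 separated upwards (all genes: 12.9%) and none downwards. The efflux pump ABCA1 was 5.54, 4.90 and 5.31 after HDL NPs and 5.79, 5.31 and 5.68 after human HDL, which overlapped (-0.34 ± 0.19, SE, adjusted p = 0.35).

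**Figure D3:**
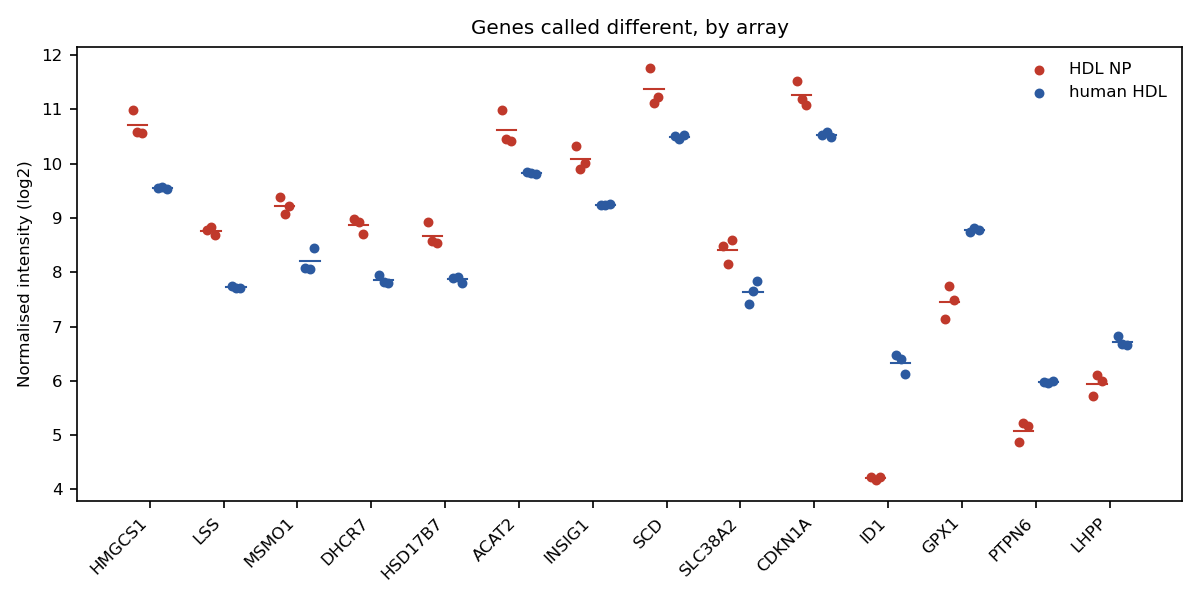
Normalised intensity (log2, vertical axis) of 14 genes past the adjusted threshold on each array, with HDL NP arrays in red at the left of each pair and human HDL arrays in blue at the right. Points are arrays, in the order of replicates 1 to 3, and short lines are group means, and in no gene do the groups overlap.

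The 4 falls had a median difference of -1.11, against 0.78 for the rises. ID1, which blocks E proteins from binding DNA and is switched on directly by BMP signalling, was 4.23, 4.17 and 4.22 after HDL NPs, not above background on any of the 3 arrays, against 6.48, 6.40 and 6.13 after human HDL. Because the HDL NP level is only a bound, the fall was at least 3.48-fold, computed against the lowest signal above background on each array (fit of -2.13, adjusted p = 5e-06). GPX1, the most widely expressed glutathione peroxidase and a selenoprotein, was 7.13, 7.75 and 7.49 after HDL NPs, against 8.74, 8.82 and 8.79 after human HDL. It was 2.51-fold lower (-1.33 ± 0.15, SE, adjusted p = 0.0036) and 1.16 log2 units lower by HDL NP replicates 2 and 3 alone. PTPN6 encodes SHP-1, a phosphatase that restrains B cell receptor signalling. It was 4.87, 5.21 and 5.17 after HDL NPs and 5.98, 5.96 and 6.001 after human HDL (-0.90 ± 0.13, SE, adjusted p = 0.013). LHPP, a phosphatase, was 5.73, 6.10 and 6.004 after HDL NPs and 6.83, 6.68 and 6.66 after human HDL (-0.78 ± 0.13, SE, adjusted p = 0.034). Each of these genes had 1 kept probe, so no second probe was available to compare. A lower level in a bulk culture can come from less RNA per cell or from fewer cells with the transcript, and these cannot be told apart.

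Other members of the BMP and TGF-beta feedback list were lower in the same arrays without passing. ID3 was 11.24, 11.42 and 11.43 after HDL NPs and 11.65, 11.62 and 11.83 after human HDL (-0.34, adjusted p = 0.21). ID2 (-0.46, adjusted p = 0.17) and the inhibitory SMAD6 (-0.38, adjusted p = 0.21) were also below human HDL on each HDL NP array. In all 4 of the 9 measured genes were separated downwards and none upwards, against 10.3% and 12.9% of all genes, and the list's median was -0.13, or -0.24 without HDL NP replicate 1.

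Further genes were below human HDL on every HDL NP array, by more than 1.5-fold on average and with small unadjusted p-values, but did not pass. VPREB3, a chaperone-like protein of the pre-B cell receptor, was 5.13, 6.83 and 6.40 after HDL NPs and 7.44, 7.30 and 7.36 after human HDL, a difference of -1.24 ± 0.31 (SE, adjusted p = 0.1) that was -0.75 and past the threshold without HDL NP replicate 1 (adjusted p = 0.039). PYCARD, the inflammasome adaptor ASC, was 5.45, 6.55 and 6.24 after HDL NPs and 7.18, 7.03 and 7.04 after human HDL, and likewise differed by -1.01 with all arrays (adjusted p = 0.068) and by -0.69 without replicate 1 (adjusted p = 0.039). In both genes replicate 1 was the lowest array but not the only low one. RND2, a small GTPase, was 4.84, 5.22 and 4.96 after HDL NPs and 5.84, 5.75 and 5.82 after human HDL (-0.79, adjusted p = 0.055). POLD4, a subunit of DNA polymerase delta (-0.64), DTD1, a tRNA deacylase (-0.59), PLAAT4, a lipid acyltransferase (-0.67), TMSB15B, a thymosin that binds actin (-0.69), and YBEY, an endoribonuclease (-0.63), had adjusted p-values of 0.061 to 0.1.

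For the arrays the study used a fold over 1.5 and a p under 0.05. It did not say which array test gave p or whether p was adjusted. Applied here with the unadjusted limma p, this rule gave 168 genes higher (1.72%) and 136 lower (1.39%). The lower set rested on HDL NP replicate 1. That array was the farthest of the 3 from human HDL in 134 of the 136 genes, the median of the set was -1.53 on it and -0.22 and -0.38 on replicates 2 and 3, and 13 genes met the rule downwards without it. The higher set had medians of 0.99, 0.51 and 0.67 on the 3 arrays, replicate 1 was the farthest in 134 of the 168, and 102 genes met the rule upwards without it. The rises were 55.3% of the genes that met the rule, and 80.7% with median scaling (418 higher and 100 lower), which moved the median difference of all genes to 0.16, against 0.03 with quantile normalisation.

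GPX4, the selenoprotein that reduces lipid hydroperoxides in membranes and holds off ferroptosis, was 9.77, 10.32 and 10.19 after HDL NPs, against 10.68, 10.68 and 10.64 after human HDL. The groups did not overlap, and replicate 1 was again the lowest array. GPX4 was 1.49-fold lower (-0.57 ± 0.14, SE), which did not pass over all genes (adjusted p = 0.094), and its second probe gave -0.61. The difference was -0.42 without HDL NP replicate 1 (adjusted p = 0.089). Of the 13 measured genes of ferroptosis defence none passed, 2 were separated upwards (all genes: 12.9%) and 3 downwards (all genes: 10.3%), and the median was 0.11, or 0.01 without HDL NP replicate 1. Besides GPX4, the downward genes were GSS, glutathione synthetase (-0.30), and CISD1, a mitochondrial iron-sulfur protein (-0.23, or -0.06 without replicate 1). The upward ones were SLC3A2, the heavy chain of the cystine transporter (0.44, or 0.24 without replicate 1), and ACSL4 (0.37, with a dim second probe at -0.29). ACSL4 loads polyunsaturated fatty acids into lipids, which favours ferroptosis, so its higher level is not a gain in defence. The list's counts and median therefore mix opposite roles. The 14 measured selenoproteins held the called fall of GPX1, with 2 separated upwards, 3 downwards (all genes: 12.9% and 10.3%) and a median of -0.07, and the 10 genes of the selenocysteine machinery had none past the threshold and a median of 0.16, or 0.04 without replicate 1. Iron genes held none past the threshold either. TFRC, the transferrin receptor, was 11.50, 10.74 and 10.83 after HDL NPs and 10.36, 10.28 and 10.28 after human HDL (0.72 ± 0.18, SE, adjusted p = 0.1), and the difference was 0.48 without replicate 1. FTL, the ferritin light chain, overlapped (-0.14), and FTH1 was not analysed here. The 11 measured targets of NRF2 had 3 separated upwards (all genes: 12.9%), none past the threshold and a median of 0.25, which was 0.52 on HDL NP replicate 1 and 0.11 without it.

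Genes of the amino acid response leaned upwards as a whole. All 19 measured members of the ATF4 list had a positive difference, 13 were separated upwards (all genes: 12.9%) and none downwards, and the median was 0.31, at 0.51, 0.27 and 0.29 on the 3 HDL NP arrays. Only SLC38A2, a sodium-coupled amino acid transporter, passed. It was 8.48, 8.15 and 8.59 after HDL NPs and 7.42, 7.66 and 7.83 after human HDL (0.77 ± 0.15, SE, adjusted p = 0.041), and it passed in 1 of the 9 fits that left out an array. SLC7A5, a transporter of large neutral amino acids (0.55, adjusted p = 0.14), TRIB3, a pseudokinase (0.40, adjusted p = 0.15), and ASNS, asparagine synthetase (0.39, adjusted p = 0.25, or 0.19 without HDL NP replicate 1), were separated upwards, while DDIT3, which encodes CHOP, overlapped (0.20, or 0.35 without replicate 1). Of the 18 measured aminoacyl-tRNA synthetases 7 were separated upwards (all genes: 12.9%) with a median of 0.33, but the list stood at 0.70 on HDL NP replicate 1 and at 0.11 and 0.18 on replicates 2 and 3. The unfolded protein response list had 5 of 15 separated upwards (all genes: 12.9%) and a median of 0.19, or 0.09 without replicate 1, and none of the 11 cytosolic heat shock genes was separated either way.

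The remaining rises came from many functions and were grouped here after their values were known. CREB1 and CREB5, transcription factors of the cyclic AMP response family, both rose. CREB1 was 10.76, 10.35 and 10.61 after HDL NPs and 9.68, 9.62 and 9.73 after human HDL (0.90 ± 0.12, SE, adjusted p = 0.011), but its 4 other kept probes gave -0.29 to 0.46. CREB5 was 7.98, 7.19 and 7.66 after HDL NPs and 6.75, 6.74 and 6.61 after human HDL (0.91 ± 0.17, SE, adjusted p = 0.041). Further regulators of transcription or chromatin among the rises were DIDO1 (0.89), EID2B (0.83), MZF1 (0.68), GABPB2 (0.69) and the zinc finger genes ZNF483, ZNF682 and ZNF430 (0.82, 0.80 and 0.61), and OGT, which attaches GlcNAc to nuclear and cytosolic proteins, rose by 0.76 with a second probe at 0.93. DIDO1, EID2B and ZNF682 had another probe, dim in each, at -0.09, 0.22 and -0.35.

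DNA repair and recombination genes among the rises were MSH3 (0.86), a mismatch repair protein whose other probe gave 0.12, DMC1 (0.78) and MCMDC2 (0.89), both known from meiosis, ABRAXAS1 (0.74), of a BRCA1 complex, and INIP (0.82), of a single-strand binding complex. The other probe of INIP gave 0.05. MSH3 was 13.15, 12.47 and 12.74 after HDL NPs and 11.92, 11.95 and 11.91 after human HDL, with replicate 1 the highest array. The cell cycle inhibitor CDKN1A, which encodes p21, was 11.53, 11.18 and 11.08 after HDL NPs and 10.53, 10.58 and 10.49 after human HDL (0.73 ± 0.14, SE, adjusted p = 0.041). Of the 11 measured p53 targets it was the only one past the threshold. ZMAT3 (0.85, adjusted p = 0.2) was 10.72 on HDL NP replicate 1 but 9.43 and 9.66 on the other HDL NP arrays, against 9.21, 8.90 and 9.13 after human HDL, and GADD45A differed by 0.41 (adjusted p = 0.18). Without HDL NP replicate 1 these differences were 0.46 and 0.26. The 16 measured cell death genes had none past the threshold, 2 separated upwards (all genes: 12.9%) and a median of -0.01, or 0.10 without replicate 1.

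Genes of endosomes and lysosomes among the rises were CLCN6, a chloride-proton exchanger of late endosomes, HPS4, of a complex that builds lysosome-related organelles, and ATP6V0A1, a subunit of the proton pump. CLCN6 was 7.28, 7.26 and 7.24 after HDL NPs and 6.44, 6.67 and 6.42 after human HDL (0.75 ± 0.12, SE, adjusted p = 0.023), the most even of these. HPS4 rose by 0.74 (adjusted p = 0.023) and ATP6V0A1 by 0.80 (adjusted p = 0.038), and the second probe of HPS4 gave 0.21. The fixed lysosome list of 19 genes, which does not hold these, had none past the threshold, 3 separated upwards (all genes: 12.9%) and a median of 0.08, or 0.04 without HDL NP replicate 1. CTSH, a cathepsin, was below human HDL on each HDL NP array (-0.50, adjusted p = 0.079). Genes of the cytoskeleton and signalling among the rises were ROCK2, a kinase that drives actomyosin contraction (0.67), ELMO1 (0.56), which activates RAC, TNS3 (0.65), a focal adhesion protein, UBASH3B (0.63), a phosphatase, and TNFRSF21 (0.73), a death receptor. ROCK2 was 12.57, 12.27 and 12.45 after HDL NPs and 11.88, 11.65 and 11.74 after human HDL (adjusted p = 0.041), and its second probe gave 0.54. The other kept probes of ELMO1 gave 0.08 and -0.18, and that of UBASH3B, which was dim, gave 0.15.

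Pseudogenes and long noncoding RNAs were also among the rises, 3 of each, of 180 and 188 tested (all genes: 0.605%). The pseudogene AOC4P was 7.71, 7.52 and 7.69 after HDL NPs and 6.72, 6.78 and 6.73 after human HDL (0.90 ± 0.12, SE, adjusted p = 0.011). BMS1P1 (0.82) and ZNF876P (0.80) were the other pseudogenes, and PAXIP1-DT (0.86), LINC01089 (0.75) and LOC100190986 (0.68) the noncoding RNAs. LINC01089 and LOC100190986 were near background after human HDL, with means of 4.66 and 4.56. Whether the probes of the pseudogenes also bind related genes was not tested. PAXIP1-DT and LINC01089 had another probe, dim in both, at 0.43 and 0.29. GOLGA8B (1.07 ± 0.20, SE, adjusted p = 0.041) was 9.05 on HDL NP replicate 1 and 8.18 and 8.37 on replicates 2 and 3, against 7.41, 7.59 and 7.39 after human HDL. GOLGA8B, ALPP (0.78), SULT1A1 (0.70) and LILRB3 (0.63) have close relatives in the genome to which their probes may also bind, so the source of their signal is uncertain. The other kept probes of SULT1A1 gave 0.09 and -0.17. With the genes tested ranked by level and cut into 5 groups of equal size, the rises numbered 2, 2, 13, 20 and 22 from the dimmest group to the brightest.

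The rises not yet named belonged to no list and had no function in common that was examined. TCAF1, which regulates a cold-sensing ion channel, was 11.69, 10.85 and 11.17 after HDL NPs and 10.35, 10.34 and 10.29 after human HDL (0.91 ± 0.18, SE, adjusted p = 0.047). USP49, a deubiquitinase, was 6.88, 6.75 and 6.84 after HDL NPs and 5.86, 6.01 and 6.07 after human HDL (0.85 ± 0.11, SE, adjusted p = 0.011), with little spread in either group. CDKN2AIPNL (0.87) and ARPP21 (0.86) were among the 20 largest rises, and the other probes of ARPP21 gave 0.88 and 0.26. The remaining ones were C21orf58 (0.80), PDCD7 (0.78), DDX51 (0.74), C2orf69 (0.74), KIFC2 (0.72), GJC1 (0.71), NLRP8 (0.69), DNAJC28 (0.67), SLC44A4 (0.63), CRYBG1 (0.61), CDAN1 (0.59) and CEP128 (0.57). Other kept probes of PDCD7, DDX51 and GJC1 gave 0.06, 0.13 and 0.13.

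Germinal center and B cell identity genes showed no call, with 7 of 16 separated upwards (all genes: 12.9%), none downwards and a median of 0.14. BACH2, a repressor that keeps B cells from becoming plasma cells, was 9.34, 8.67 and 8.75 after HDL NPs and 8.25, 8.17 and 8.27 after human HDL (0.69 ± 0.16, SE, adjusted p = 0.081). BCL6, the master repressor of germinal center cells, was 10.15, 9.55 and 9.80 after HDL NPs and 9.29, 9.17 and 9.33 after human HDL (0.57 ± 0.15, SE, adjusted p = 0.12). The groups were apart in both genes, with replicate 1 highest. Among 15 genes of B cell receptor signalling the called fall of PTPN6 stood beside differences of -0.35 for the kinase subunit PIK3CD (adjusted p = 0.19) and 0.34 for SYK (adjusted p = 0.34, or 0.10 without HDL NP replicate 1), with a list median of 0.09, or 0.00 without that array. The 18 genes of MHC class II and antigen processing had 8 separated downwards (all genes: 10.3%), none upwards, none past the threshold and a median of -0.16, or -0.07 without replicate 1. The immunoproteasome subunit PSMB9 was 5.58, 6.41 and 5.87 after HDL NPs and 6.77, 6.47 and 6.58 after human HDL (-0.65 ± 0.19, SE, adjusted p = 0.14), with a dim second probe at 0.19, and HLA-DMB, which helps load peptides, differed by -0.35 (adjusted p = 0.21). Of 19 interferon-stimulated genes 3 were separated upwards and 3 downwards, near the shares of all genes (12.9% and 10.3%). MX1, an antiviral GTPase, was 10.01, 9.41 and 9.74 after HDL NPs and 9.10, 9.02 and 9.19 after human HDL (0.62, adjusted p = 0.084), whereas ISG15 differed by -0.85 (adjusted p = 0.23), or by -0.34 without replicate 1. NFKBIA, the inhibitor of NF-kappaB and one of its targets, was 8.46, 8.32 and 8.33 after HDL NPs and 8.97, 8.79 and 8.84 after human HDL (-0.50 ± 0.11, SE, adjusted p = 0.066). It was -0.54 without HDL NP replicate 1, where it passed (adjusted p = 0.039).

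**Figure D4:**
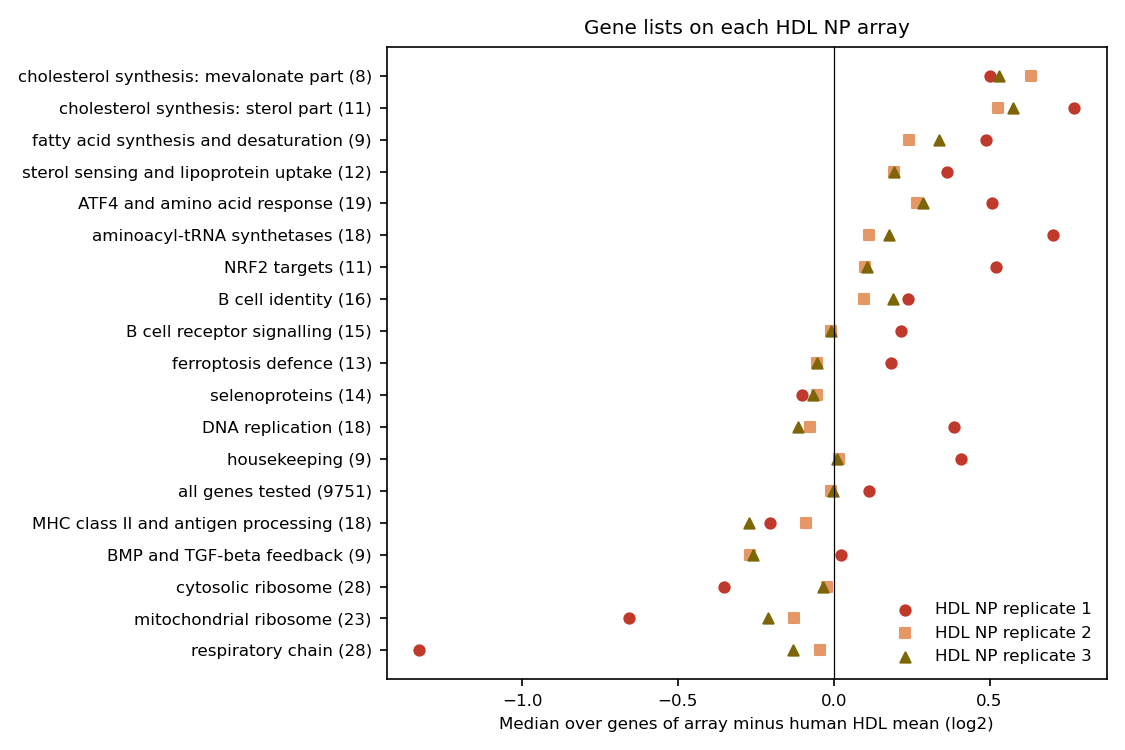
Median over the measured genes of each list (number in brackets) of the level on 1 HDL NP array minus the mean of the human HDL arrays (log2, horizontal axis), with HDL NP replicates 1, 2 and 3 as circles, squares and triangles. The cholesterol lists sit at 0.50 or above on all 3 arrays, while the respiratory chain sits at -1.33 on replicate 1 and at -0.04 and -0.13 on the others.

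Mitochondrial and ribosomal genes were low chiefly on HDL NP replicate 1. The 28 measured genes of the respiratory chain had a median of -0.44, made up of -1.33 on replicate 1, -0.04 on replicate 2 and -0.13 on replicate 3, and the median was -0.09 without replicate 1. NDUFS7, a subunit of complex I, was 9.09 on replicate 1 but 10.45 and 10.39 on replicates 2 and 3, against 10.68, 10.70 and 10.65 after human HDL. The 23 mitochondrial ribosomal proteins had a median of -0.34 with 11 separated downwards (all genes: 10.3%) and none upwards. Their array medians were -0.66, -0.13 and -0.21, and -0.18 remained without replicate 1. MRPL24 was 9.25, 9.67 and 9.50 after HDL NPs and 9.98, 9.82 and 9.92 after human HDL (-0.43 ± 0.13, SE, adjusted p = 0.15). The 28 cytosolic ribosomal proteins had medians of -0.35, -0.02 and -0.03 on the 3 arrays. No gene of these lists passed the threshold. Replicate 1 was on the other side for replication and housekeeping genes, at 0.39 for the 18 DNA replication genes, against -0.08 and -0.11 on replicates 2 and 3, and at 0.41 for the 9 housekeeping genes, against 0.02 and 0.01. Whether the state of the cells, of the RNA or of the array set replicate 1 apart was not tested.

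The genes most displaced on HDL NP replicate 1 relative to the other HDL NP arrays were not called. TMEM256, CRIP1, ATP5IF1, RPS28 and UQCR10 were the farthest below. TMEM256 was 7.07 on replicate 1 but 9.84 and 9.33 on replicates 2 and 3, against 9.78, 9.94 and 9.77 after human HDL. CRIP1, a small LIM protein, was 7.37 on replicate 1 but 9.57 and 9.53 on the others, against 9.76, 9.70 and 9.85 after human HDL. UQCR10, of complex III, was 6.91 on replicate 1 but 9.13 and 9.03 on the others, against 9.09, 9.25 and 9.19 after human HDL. In each of these 3 genes replicates 2 and 3 lay nearer to human HDL than to replicate 1. WDR82, ZNF91, ARID4B, KCTD20 and WSB1 were the farthest above. WSB1, of a ubiquitin ligase, was 8.55 on replicate 1 and 7.25 and 7.45 on the others, against 7.20, 7.08 and 7.24 after human HDL.

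**Figure D5:**
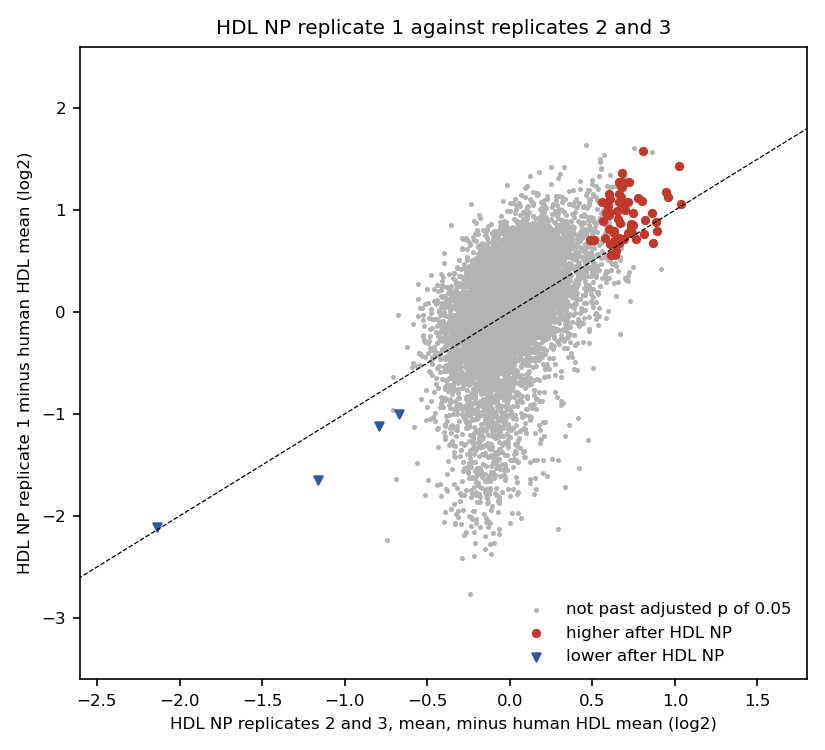
Level on HDL NP replicate 1 minus the human HDL mean (log2, vertical axis) against the mean of HDL NP replicates 2 and 3 minus the same human HDL mean (log2, horizontal axis) for the 9751 genes tested. The dashed line marks equal differences, both axes share the human HDL arrays, and a tail of genes low on replicate 1 alone lies away from the 59 called rises (red) and 4 called falls (blue).

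Of the other lists, none held a gene past the threshold. The MYC network had a median of 0.20, NF-kappaB of 0.00, cell cycle and mitosis of 0.06, glycolysis of 0.10, the hypoxia response of 0.04, ribosome biogenesis of 0.10, the proteasome of 0.10, histones of -0.05, the actin and tubulin cytoskeleton of -0.02, immediate early genes of -0.03 and sphingolipid and lysolipid signalling of -0.01. Of these, cell cycle and mitosis and glycolysis had the most genes separated upwards, 3 each of 20 and 17 (all genes: 12.9%), and histones the most separated downwards, 3 of 12 (all genes: 10.3%). Without HDL NP replicate 1 the medians lay nearer to 0 for the MYC network (0.04), glycolysis (0.03), ribosome biogenesis (-0.0013), cell cycle and mitosis (-0.0025), the proteasome (-0.01), the hypoxia response (0.00) and histones (0.02), and farther from it for sphingolipid and lysolipid signalling (-0.13), the cytoskeleton (-0.06) and immediate early genes (-0.05). The 7 measured metallothioneins and metal response genes had a median of -0.16, or 0.01 without replicate 1. MT1X, a metal-binding protein, was 4.57 on HDL NP replicate 1 and 6.30 and 6.34 on replicates 2 and 3, against 6.58, 6.67 and 6.72 after human HDL (-0.92, adjusted p = 0.24).

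Above background on all 3 HDL NP arrays and on no human HDL array were 59 genes, all of them dim, with HDL NP means of at most 5.03, and none was past the threshold. They are a different set from the 59 called rises, of which 58 were above background on all 6 arrays. TRAM2, of the endoplasmic reticulum, was 5.24, 4.84 and 5.01 after HDL NPs and 4.49, 4.27 and 4.47 after human HDL, where it was not above background, and so at least 1.37-fold higher, computed as for ID1 (fit of 0.62, adjusted p = 0.056). It was tested only because its HDL NP arrays met the detection limit. The reverse pattern was seen in 17 genes, of which only ID1 passed.

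For the 59 rises, human HDL and PBS gave similar levels. The median difference of human HDL from PBS was -0.09 over these genes, with a range of -0.35 to 0.10, and that of HDL NP from PBS was 0.69, against 0.78 for HDL NP from human HDL. The 3 comparisons share arrays, so these values are not separate evidence. For the 4 falls, human HDL differed from PBS by -0.18 to 0.13. HMGCS1 averaged 10.7 ± 0.24 after HDL NPs, 9.55 ± 0.02 after human HDL and 9.48 after PBS, and GPX1 averaged 7.46 ± 0.31, 8.78 ± 0.04 and 8.84 (SD, n = 3 arrays).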

How the data were processed

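RNA of Ramos cells exposed for 48 h to 40 nM of either particle, or to PBS, was hybridised to Illumina HT-12 arrays, 3 per condition. The authors deposited a bead intensity for 47323 probes on each array, not background subtracted or normalised, beside a detection p-value that the deposited header names and that ranks a probe among negative controls. A second deposited table gives a signal per probe whose unit is not stated, and it served only as an alternative. Array software and scan batches are not given in the sources used here.

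The neqc function of limma 3.58.1 (R 4.3.3) was run with an offset of 16. It estimates negative controls through the detection p-values, applies normexp background correction and quantile normalisation, and returns log2. Probe symbols came from GEO's platform annotation. Of the probes, 30113 had 1 symbol, 8 several and 17202 none, and 30074 matched by gene ID to GRCh38.p14, which changed 0 symbols. The 16703 probes with detection p under 0.05 on at least 3 of the 6 arrays included 12833 with 1 symbol. They gave 9751 genes, 2488 of them with more than 1 kept probe, where the brightest over the 6 arrays was used. All 9 arrays entered 1 fit (lmFit, eBayes) on condition alone (12 total degrees of freedom), and p-values for HDL NP minus human HDL were two-sided and adjusted over all genes by Benjamini-Hochberg. The number of arrays limits the precision. A gene not above background on any array of a group was given as a bound.

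Same-numbered HDL NP and human HDL arrays deviated together with r of 0.12, 0.06 and 0.17, so numbers were not taken to pair the arrays. The pipeline was tested on simulated data in which no array was made to stand apart. That test therefore does not cover an array such as HDL NP replicate 1. The comparison, gene lists, alternatives and naming rule were chosen with earlier results of these data known. Named genes were the 20 largest rises and the largest falls past the threshold, falls completed to 15 by p, members of each list past the threshold or with the smallest p, every member of the cholesterol, sterol sensing and ferroptosis lists, genes the study names, and the 5 farthest above and below on HDL NP replicate 1. The other rises, ISG15, SYK and some members of lists were named after their values were seen.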

Additional observations from a re-analysis of the deposited data

Results flagged for a closer look

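Probes without a single gene symbol were outside the gene comparison. Of 3870 such probes that met the same detection limit, 3 were higher after HDL NPs than after human HDL and 0 were lower (limma, adjusted over these probes), while human HDL against PBS gave 0. By a fold over 1.5 with an unadjusted p under 0.05, 77 were higher and 33 lower. What these probes measure was not analysed here.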

How the results depend on the processing

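Genes past the adjusted threshold numbered 59 higher and 4 lower. No background correction gave 75 and 16, an offset of 50 gave 85 and 11, median scaling 1 and 2, the values of the second deposited file 0 and 0 (461 and 299 at an unadjusted p under 0.05), no filter on dim probes 39 and 7, detection on all 6 arrays 69 and 6, averaging the kept probes of each gene 39 and 4, array weights 198 and 51 (weight of HDL NP replicate 1 0.15), and the 6 arrays alone 3 and 2. The methods' t-test gave 0 and 0 after Benjamini-Hochberg and 661 and 415 at an unadjusted p under 0.05. Leaving out 1 array gave 2 to 170 higher and 2 to 64 lower. By the study's rule 168 were higher and 136 lower. The counts were 66 and 26 without background correction, 96 and 62 with an offset of 50, 418 and 100 with median scaling, 445 and 292 with the second file, 139 and 19 with array weights, 162 and 76 with the 6 arrays alone, 134 and 16 by the methods' t-test, and 102 to 338 and 13 to 466 when 1 array was left out. What the values of the second file measure is not known, so its counts and signs cannot be read as a check on expression. The causes were not tested.

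The replicate block (replicate number as a term) gave 44 higher and 4 lower genes, 37 and 4 of them shared with the fit without it, and 168 and 173 by the study's rule. Every same-numbered pair of HDL NP and human HDL arrays correlated more than other pairings of these 2 groups did, a hint from the data only. Pairings with PBS were mixed. HDL NP replicate 3 had r of 0.169 with PBS replicate 3, but HDL NP replicate 2 had -0.085 with PBS replicate 2 and 0.079 with PBS replicate 3.

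The 59 rises kept their direction under each of the alternatives in which they were measured. The values that changed sign were ACLY -0.0566, ARID4B -0.000123, FDPS -0.114, INSIG2 -0.0463, SCAP -0.525 and SLC3A2 -0.258 with the second file, GGPS1 -0.0343, KCTD20 -0.136, RPS28 0.203 and WDR82 -0.251 with array weights, and LBR -0.111 with the mean of kept probes. Over the fits that left out 1 array, ARID4B ranged between -0.018 and 0.652, GGPS1 between -0.046 and 0.217, KCTD20 between -0.233 and 0.447, RPS28 between -0.962 and 0.293, WDR82 between -0.355 and 0.303 and EBP between -0.00952 and 0.218. Dim genes are limited by signal over background, as the 3-of-6 filter leaves probes near it.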
